A study of Homo sapiens with 6 samples.

Results

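The genes described here are 10 transcripts that the ERK pathway is known to switch on and that report or restrain its activity, namely *DUSP4*, *DUSP5*, *DUSP6*, *SPRY1*, *SPRY2*, *SPRY4*, *SPRED1*, *ETV4*, *ETV5* and *PHLDA1*. They were chosen by symbol with earlier results of these data known, so counts of them beside all genes are descriptions. All 10 were found among the 17471 genes of the expression table and passed the filter on low values. RNA-seq had been made from AN3CA cells, a human endometrial cancer line that is known for activating mutations of the receptor *FGFR2*. The control group (shEV, 3 libraries) carried an empty lentiviral hairpin vector, although the study's text elsewhere calls the AN3CA control scrambled, and the knockdown group (shPAX2, 3 libraries) carried a short hairpin RNA against the transcription factor *PAX2*. Both groups were grown in serum-containing medium and selected with puromycin, and the labels give no time after transduction. A single hairpin sequence was used, so effects of *PAX2* loss and of that hairpin elsewhere cannot be told apart. The labels number the libraries 1 to 3 within each group without saying that they came from separate cultures, so the p-values measure the spread between these libraries, which may be technical.

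ERK is the last kinase of the cascade that runs from growth factor receptors such as the FGF receptors through RAS, RAF and MEK. Active ERK phosphorylates transcription factors that switch on immediate and delayed output genes, and several of these outputs encode inhibitors of the same cascade, which closes a negative feedback loop. The DUSP genes encode phosphatases that remove phosphate from MAP kinases, the Sprouty (SPRY) and SPRED proteins act higher up, at the level of receptors, RAS and RAF, and *ETV4* and *ETV5* encode ETS family transcription factors. Their transcript levels are commonly read as a record of ERK signalling in cancer cells. ERK phosphorylation itself was not measured in these data.

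Values are TPM (a transcript abundance unit), that is, reads divided by gene length and scaled to a fixed total in each library, so levels can be compared between genes but each is a share of the total. Whole reads recovered from the TPM values ranged from 10730909 to 18221859 in the control libraries and from 19422615 to 29405787 in the knockdown libraries, which were thus all the deeper ones. Recovered reads are the smallest whole numbers that fit, so the true counts may be higher. The targeted transcript *PAX2* had 4.03, 3.66 and 2.74 TPM in the shEV replicates and 0.916, 0.723 and 1.17 TPM in the shPAX2 replicates, on 41 to 136 reads per library. Its mean in shPAX2 was 26.9% of that in shEV (log2 fold change -1.47, SE 0.18, limma adjusted p = 0.000294), and the groups did not overlap. By exact permutation of the libraries (two-sided), p was 0.1, the lowest p this exact test can return for 2 groups of 3. The labels call the cells epithelial, but 6 of the 7 epithelial markers examined, *EPCAM*, *KRT8*, *KRT19*, *KRT7*, *CDH1* and *CLDN4*, lay below 0.5 TPM in every library. *KRT18* was the only one tested (mean 11.2 TPM in shEV and 14.9 TPM in shPAX2, adjusted p = 0.0642), while *VIM* stood at 4212 TPM in shEV and 3808 TPM in shPAX2 (adjusted p = 0.0683). The 3 stromal markers with a row had sums between 811 and 858 TPM in the shEV libraries and between 362 and 441 TPM in the shPAX2 libraries, and *COL1A2* made up nearly all of them (log2 fold change -1.11, adjusted p = 1.75e-05). The summed endothelial markers (2 with a row) reached at most 0.0611 TPM and the summed leukocyte markers (2 with a row) at most 0.241 TPM. The part that the shift in *COL1A2* or in depth had in the results below was not tested.

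Of the 10 genes, 8 differed between the groups, that is, had an adjusted p under 0.05 in the limma fit across all genes. *DUSP4* rose, and *DUSP5*, *DUSP6*, *SPRY1*, *SPRY2*, *SPRY4*, *ETV4* and *ETV5* fell, each to between 65.3% and 81.4% of its shEV mean. *SPRED1* and *PHLDA1* did not pass the test. The background was broad. Of 13163 genes tested, 5629 (42.8%) differed, 1612 (12.2%) were higher and 4017 (30.5%) were lower in shPAX2, against 8, 1 and 7 of the 10. *DUSP4* was the only member past the fold threshold, set at a log2 fold change of 1 in either direction, which 4.54% of genes tested passed in either direction and 1.43% passed upwards. The shEV and shPAX2 libraries did not overlap in 8 of the 10 members and in 54.9% of all genes tested. The median log2 fold change was -0.33 over the 10 members and -0.10 over all genes tested.

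The lean towards lower values among all genes depended on scaling. Of the genes called, 71.4% were lower on the TPM scale, 47.3% after median-of-ratios scaling and 51.3% after quantile normalization, and the median of all genes moved from -0.10 to 0.0053 and 0.0019. Relative to the median of all genes, the members that fell had log2 fold changes of -0.51 (*SPRY1*), -0.37 (*ETV4*), -0.33 (*DUSP6*), -0.26 (*DUSP5*), -0.26 (*ETV5*), -0.20 (*SPRY2*) and -0.19 (*SPRY4*), so all lay below the average gene. After median-of-ratios scaling 4 members were lower (*DUSP6*, *SPRY1*, *ETV4* and *ETV5*), beside 2577 of 13166 genes tested. *DUSP5*, *SPRY2* and *SPRY4* kept their negative sign without passing the test. After quantile normalization 6 members were lower, *DUSP5* being the one lost, beside 2489 of 13163 genes tested.

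**Figure D1:**
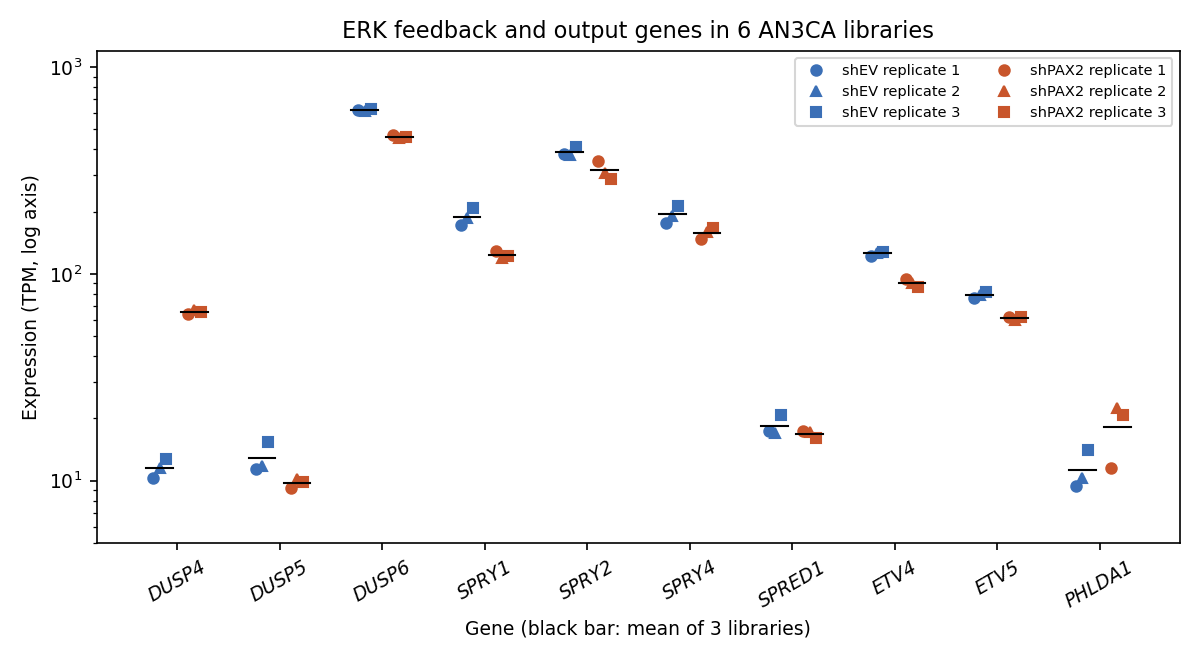
TPM on a log axis in each of the 6 libraries for the 10 genes, with shEV and shPAX2 libraries as separate points and the bar at the group mean. DUSP4 has means of 11.6 TPM in shEV and 65.4 TPM in shPAX2, DUSP6 is the highest of the 10 in every library, and the groups overlap in SPRED1 and PHLDA1.

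*DUSP4* and *DUSP6*, which encode phosphatases acting on the same kinase, moved in opposite directions. *DUSP4* encodes a nuclear phosphatase of ERK and of the stress kinases JNK and p38, on the minus strand of chromosome 8 (29190581 to 29208201, GRCh37). It stood at 10.3, 11.6 and 12.8 TPM in the 3 shEV replicates and at 64.0, 66.8 and 65.5 TPM in the 3 shPAX2 replicates. All 3 shPAX2 libraries lay far above all 3 shEV libraries, and within each group the libraries lay close together. The mean rose from 11.6 ± 1.22 TPM (SD, n = 3) to 65.4 ± 1.40 TPM (SD, n = 3), a ratio of 5.665, with a log2 fold change of 2.46 (SE 0.079, 95% interval 2.28 to 2.63, limma adjusted p = 1.516e-07). That fold change ranked 41 from the top among 13163 genes tested, and by mean level *DUSP4* moved from rank 8745 to rank 2460 of the 17471 genes. Its reads, between 407 and 846 per shEV library and between 4694 and 7187 per shPAX2 library, leave counting error small beside the difference.

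*DUSP6* encodes the cytoplasmic, ERK-selective phosphatase that is widely used as a transcript marker of ERK activity, on the minus strand of chromosome 12 (89741012 to 89746278). It stood at 620.3, 616 and 629 TPM in the shEV replicates and at 469, 453 and 457 TPM in the shPAX2 replicates. The spread within each group was narrow and the groups were well apart. The mean fell from 622 ± 6.41 to 459 ± 8.39 TPM (SD, n = 3 each), to 73.9% of the shEV level (log2 fold change -0.44, SE 0.052, adjusted p = 0.000269). *DUSP6* remained abundant, at rank 177 of all genes in shEV and rank 256 in shPAX2.

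*DUSP5* encodes a nuclear phosphatase specific for ERK and lies on the plus strand of chromosome 10 (112257665 to 112271291). It stood at 11.4, 11.7 and 15.4 TPM in the shEV replicates and at 9.25, 10.2 and 9.81 TPM in the shPAX2 replicates. The groups did not overlap, but shEV replicate 3 lay apart from the other two shEV libraries. The log2 fold change was -0.37 (SE 0.11, adjusted p = 0.0286). Its adjusted p was the highest of the 8 genes that passed. Without shEV replicate 3 its log2 fold change was -0.23 (adjusted p = 0.0618), and without shPAX2 replicate 1, 2 or 3 the adjusted p was 0.0700, 0.0516 or 0.0584. The nuclear phosphatases *DUSP4* and *DUSP5* had similar levels in shEV, with overlapping ranges, and were widely apart in shPAX2.

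The balance between *DUSP4* and *DUSP6* moved while their sum moved less. *DUSP4* amounted to 1.67%, 1.88% and 2.03% of *DUSP6* in the shEV replicates and to 13.7%, 14.8% and 14.4% in the shPAX2 replicates. This ratio is taken within each library and so does not depend on the scaling of libraries. The sum of both went from 633 ± 7.28 TPM to 525 ± 7.02 TPM (SD, n = 3 each), to 82.9% of shEV, without overlap. In TPM, the loss of *DUSP6* was larger than the gain of *DUSP4*.

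**Figure D2:**
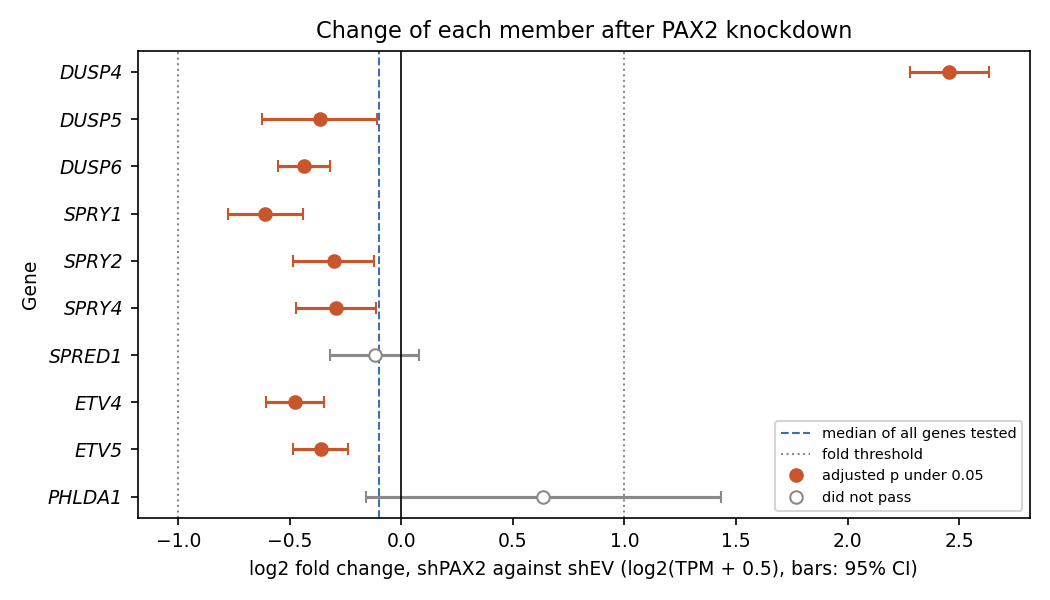
Log2 fold change (shPAX2 minus shEV, log2(TPM + 0.5) scale) of the 10 genes with 95% intervals from limma. DUSP4 is alone beyond a log2 fold change of 1, 7 genes lie between -0.61 and -0.29, and the intervals of SPRED1 and PHLDA1 cross 0.

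The 3 Sprouty genes fell together, by different amounts. Sprouty proteins are membrane-associated inhibitors that ERK signalling induces and that restrain receptor signalling towards RAS. *SPRY1* (chromosome 4, 124317950 to 124324915, plus strand) stood at 172, 187 and 207 TPM in the shEV replicates and at 129, 119 and 122 TPM in the shPAX2 replicates. All shEV libraries lay above all shPAX2 libraries. The mean fell from 189 ± 17.7 to 123 ± 4.72 TPM (SD, n = 3 each), to 65.3% (log2 fold change -0.61, SE 0.075, adjusted p = 0.000321), the lowest log2 fold change of the 10 members.

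*SPRY2* (chromosome 13, 80910111 to 80915261, minus strand), the most abundant Sprouty transcript here, stood at 382, 377 and 411 TPM in the shEV replicates and at 354, 309 and 288 TPM in the shPAX2 replicates. The groups did not overlap, but the gap between the highest shPAX2 library and the lowest shEV library was smaller than the SD of the shPAX2 libraries (33.4 TPM). The log2 fold change was -0.30 (SE 0.081, adjusted p = 0.0155). It no longer passed without shEV replicate 3 (-0.27, adjusted p = 0.0628) or without shPAX2 replicate 2 (-0.29, adjusted p = 0.0554).

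*SPRY4* (chromosome 5, 141689992 to 141706020, minus strand) stood at 177, 191 and 213 TPM in the shEV replicates and at 148, 159 and 166 TPM in the shPAX2 replicates. Here too the groups did not overlap, and shEV replicate 3 was the highest. The log2 fold change was -0.29 (SE 0.079, adjusted p = 0.0159), and -0.22 (adjusted p = 0.0558) without shEV replicate 3. *SPRY4* and *SPRY1* were level in shEV, where the *SPRY4* value was 1.03, 1.02 and 1.03 times that of *SPRY1*, and in shPAX2 it was 1.15, 1.33 and 1.36 times. Summed, the 3 Sprouty transcripts went from 773 ± 52.7 to 598 ± 28.6 TPM (SD, n = 3 each), to 77.4% of shEV, without overlap.

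*SPRED1* (chromosome 15, 38545037 to 38649450, plus strand) encodes a Sprouty-related protein that brings neurofibromin, a RAS inactivator, to the membrane. It stood at 17.4, 16.97 and 20.9 TPM in the shEV replicates and at 17.3, 17.3 and 16.0 TPM in the shPAX2 replicates. The groups overlapped. The log2 fold change was -0.12 (SE 0.088, 95% interval -0.32 to 0.08, adjusted p = 0.302) and its sign turned after quantile normalization (0.013), so no difference was detected and the interval still holds decreases of the size seen in *SPRY2* and *SPRY4*.

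Promoter windows of RefSeq on GRCh38.p14, from 250 bases before to 50 bases after each transcript start, were matched by symbol for 6 of the 10 members, in 9 windows: 2 for *SPRY1*, 3 for *SPRY2* and 1 each for *SPRY4*, *SPRED1*, *DUSP6* and *PHLDA1*. The ETS core CCGGAA, searched on both strands, was present in 1 window each of *SPRY1* (67 bases before the start), *SPRY2* (142 bases before) and *PHLDA1* (on the reverse strand, 89 bases before), that is, in 3 of 9 windows against 17.2% of all 35116 windows. Of the octamers known to bind the repressor *CIC*, TCAATGGA was added after the other forms had been searched. It was in 1 of the 9 windows, that of *DUSP6*, at 2 places on the reverse strand (beginning 24 bases before the start and at base 2 of the transcript), and in 0.51% of all windows. The other *CIC* octamers TGAATGAA, TGAATGGA and TCAATGAA, the AP-1 site TGANTCA and the cyclic AMP response element TGACGTCA were in none of the 9 and in 1.65%, 1.03%, 0.718%, 7.71% and 1.85% of all windows. None of these motifs contains another, and a match or its lack describes these letters in these windows only. The windows of the Sprouty genes that hold the core are printed 5′ to 3′ with the core in capitals. The window of *DUSP6* is printed the same way with both copies of the reversed *CIC* octamer in capitals. *SPRY1*, *SPRY2* and *DUSP6* all fell, while *PHLDA1*, which also holds the core, did not pass the test. *SPRY4* fell and its window held none of the motifs. Whether the motifs bear on the changes was not tested.
SPRY1 (window chr4:123398136-123398435, plus strand): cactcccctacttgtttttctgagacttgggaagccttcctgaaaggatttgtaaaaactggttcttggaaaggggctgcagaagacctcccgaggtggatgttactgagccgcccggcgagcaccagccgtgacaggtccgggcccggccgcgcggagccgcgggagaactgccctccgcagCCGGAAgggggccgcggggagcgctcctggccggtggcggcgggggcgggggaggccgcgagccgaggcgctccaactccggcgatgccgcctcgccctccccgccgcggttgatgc
SPRY2 (window chr13:80341077-80341376, minus strand): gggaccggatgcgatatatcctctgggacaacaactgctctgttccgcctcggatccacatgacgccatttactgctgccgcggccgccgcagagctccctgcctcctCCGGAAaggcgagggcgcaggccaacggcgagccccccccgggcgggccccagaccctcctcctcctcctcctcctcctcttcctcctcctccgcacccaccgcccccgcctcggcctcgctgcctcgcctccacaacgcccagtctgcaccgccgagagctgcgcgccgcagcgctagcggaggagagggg
DUSP6 (window chr12:89352452-89352751, minus strand): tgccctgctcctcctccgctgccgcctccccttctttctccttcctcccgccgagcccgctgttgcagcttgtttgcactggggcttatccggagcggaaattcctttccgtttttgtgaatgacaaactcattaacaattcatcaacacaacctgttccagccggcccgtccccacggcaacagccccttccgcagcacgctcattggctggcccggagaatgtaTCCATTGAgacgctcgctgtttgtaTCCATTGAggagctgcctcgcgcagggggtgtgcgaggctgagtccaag
GC content was 69.3% in the *SPRY1* window, 71.0% in the *SPRY2* window and 58.3% in the *DUSP6* window.

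*ETV4* and *ETV5*, the ETS factors of the PEA3 group that carry FGF and ERK signals into transcription, both fell, with tight replicates. *ETV4* (chromosome 17, 41605212 to 41656988, minus strand) stood at 123, 127 and 128 TPM in the shEV replicates and at 94.0, 90.4 and 86.4 TPM in the shPAX2 replicates. The groups lay well apart. The mean went from 126 ± 2.902 to 90.3 ± 3.77 TPM (SD, n = 3 each), to 71.8% of shEV (log2 fold change -0.48, SE 0.057, adjusted p = 0.000267). *ETV4* overlaps *DHX8* on the opposite strand, and the strand setting of the counting is not given in the sources used here, so reads of both genes may be mixed. The same limit holds for *DUSP6*, *SPRY4*, *ETV5* and *PHLDA1*, which overlap long noncoding RNAs on the opposite strand that have no row of their own. *DHX8* also fell, from 70.5 to 56.9 TPM (log2 fold change -0.31, adjusted p = 0.00357).

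*ETV5* (chromosome 3, 185764103 to 185828107, minus strand) stood at 76.2, 78.8 and 81.4 TPM in the shEV replicates and at 62.2, 59.9 and 61.7 TPM in the shPAX2 replicates. Again every shEV library was above every shPAX2 library. The mean went from 78.8 ± 2.60 to 61.3 ± 1.22 TPM (SD, n = 3 each), to 77.7% of shEV (log2 fold change -0.36, SE 0.055, adjusted p = 0.000971). *ETV5* overlaps *DGKG* on the same strand, which stood at 3.42 TPM in shEV and 2.56 TPM in shPAX2 (adjusted p = 0.0601). Summed, *ETV4* and *ETV5* went to 74.1% of shEV, close to the 73.9% of *DUSP6*. The ratio of *ETV4* to *ETV5* was 1.60 ± 0.021 in shEV and 1.47 ± 0.063 in shPAX2 (SD, n = 3 each).

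*PHLDA1* encodes a pleckstrin homology-like protein induced by growth factor signalling and lies on the minus strand of chromosome 12 (76419227 to 76425556). It stood at 9.45, 10.3 and 14.1 TPM in the shEV replicates and at 11.5, 22.5 and 20.8 TPM in the shPAX2 replicates. The groups overlapped because shPAX2 replicate 1 lay among the shEV libraries while the other two shPAX2 libraries lay above all of them. The log2 fold change was 0.64 (SE 0.31, 95% interval -0.16 to 1.43, adjusted p = 0.161). Without shPAX2 replicate 1 it was 0.93 and passed the test (adjusted p = 0.00537). With all 6 libraries it also passed in the fit with the replicate number as a block (0.64, adjusted p = 0.0389) and with voom on the recovered reads (0.63, adjusted p = 0.0405), so the call depended on that library and on the model. Relative to its mean, *PHLDA1* had the widest spread of the 10 among the shPAX2 libraries, with an SD of 5.94 TPM on a mean of 18.3 TPM.

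The order of the levels changed among the less abundant members, with *DUSP4* and *PHLDA1* moving up and *DUSP5* moving to the end. In shEV the order was *DUSP6*, *SPRY2*, *SPRY4*, *SPRY1*, *ETV4*, *ETV5*, *SPRED1*, *DUSP5*, *DUSP4* and *PHLDA1* from the highest to the lowest mean TPM. *SPRY4* and *SPRY1* overlapped, as did *DUSP5* with *DUSP4* and *DUSP4* with *PHLDA1*, and the other neighbours did not. In shPAX2 the order was *DUSP6*, *SPRY2*, *SPRY4*, *SPRY1*, *ETV4*, *DUSP4*, *ETV5*, *PHLDA1*, *SPRED1* and *DUSP5*. There *DUSP4* stood between *ETV4* and *ETV5* without overlapping either. *PHLDA1* and *SPRED1* were the only neighbours that overlapped in shPAX2. The 10 transcripts together went from 1653 ± 70.8 to 1319 ± 33.7 TPM (SD, n = 3 each), 79.8% of the shEV level. Among the shEV libraries, replicate 3 was the highest for 10 of the 10 members, against 41.4% of all genes tested. The part of this in the results was not tested beyond leaving that library out, which left 5 members called, *DUSP4*, *DUSP6*, *SPRY1*, *ETV4* and *ETV5*. Calls over all genes fell as well, to 4290 of 12922 genes tested, from 5629 of 13163 with all 6 libraries.

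**Figure D3:**
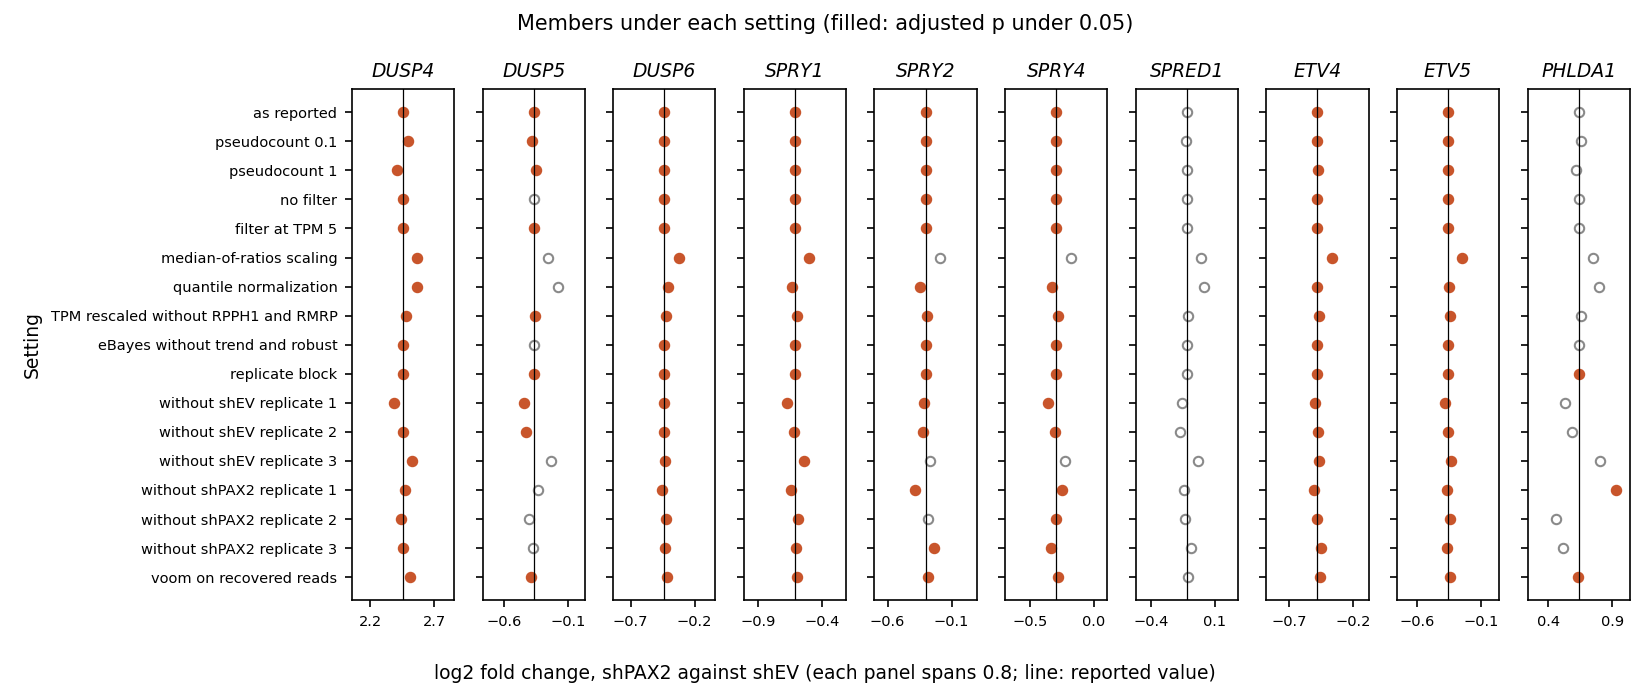
Log2 fold change of the 10 genes as reported and under the 16 other settings (scaling, filters, pseudocounts, left-out libraries, replicate block, voom). DUSP4 runs from 2.38 to 2.57, DUSP6 from -0.45 to -0.32, SPRY1 from -0.67 to -0.50, and PHLDA1 from 0.46 to 0.93.

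Other genes of the same pathway were taken from lists of known function, also chosen with earlier results of these data known. Of 11 other feedback inhibitors tested, 3 were higher, 5 were lower and 3 did not pass, with a median log2 fold change of -0.19. Without shPAX2 replicate 2 the counts were 1 higher and 3 lower, and 3 were also lower without shEV replicate 3, after quantile normalization and with a filter at 5 TPM. *ERRFI1*, an inhibitor of the EGF receptor family, fell from 17.2 ± 2.59 to 7.23 ± 0.66 TPM (log2 fold change -1.19, adjusted p = 9.133e-05), and *SPRED3* fell from 3.92 to 1.78 TPM (-0.95, adjusted p = 0.000725). *IL17RD*, also known as Sef, an inhibitor of FGF receptor signalling, rose from 22.1 ± 0.66 to 31.5 ± 2.64 TPM (log2 fold change 0.50, adjusted p = 0.000839). *DUSP9*, a cytoplasmic ERK phosphatase of the same subfamily as *DUSP6*, rose from 48.9 ± 4.29 to 59.4 ± 2.79 TPM (log2 fold change 0.28, adjusted p = 0.0158; 0.0661 without shPAX2 replicate 2). The inhibitors held genes that rose and genes that fell, as did all genes tested (12.2% higher and 30.5% lower).

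Of 10 other ERK output genes tested, 8 were lower, 0 were higher and 2 (*EPHA2* and *FOSL1*) did not pass, with a median log2 fold change of -0.48. Of all genes tested, 30.5% were lower and 12.2% were higher. After median-of-ratios scaling 6 of the list were lower, beside 2577 of 13166 genes tested. Without shEV replicate 2 or 3 the number lower was also 6, and without a filter on low values it was 9. Without shPAX2 replicate 1 and with voom on the recovered reads, 1 gene of the list was called higher. The immediate early genes *EGR1* and *FOS* were past the fold threshold. *EGR1* stood at 36.6, 34.5 and 41.7 TPM in the shEV replicates and at 12.8, 13.98 and 14.2 TPM in the shPAX2 replicates (log2 fold change -1.43, adjusted p = 5.046e-06). *FOS* stood at 43.6, 22.5 and 29.7 TPM against 7.18, 11.3 and 10.7 TPM (log2 fold change -1.64, adjusted p = 0.0120), and its call was lost with the replicate number as a block (adjusted p = 0.0686). Neither overlapped between the groups, and the *FOS* replicates varied widely in shEV. *MYC* fell from 86.5 ± 9.64 to 67.5 ± 5.03 TPM (log2 fold change -0.35, adjusted p = 0.0136) and *HMGA2* from 36.97 ± 2.73 to 27.6 ± 3.27 TPM (-0.42, adjusted p = 0.00649). The *MYC* call was lost without shEV replicate 2 (adjusted p = 0.0566) or 3 (0.0559) and after median-of-ratios scaling (-0.24, adjusted p = 0.0642).

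In the kinase cascade itself most genes did not pass the test. Of its 24 genes, 1 was higher, 6 were lower and 17 did not pass, so 29.2% were called against 42.8% of all genes tested. The median log2 fold change was -0.10 in both. The split depended on scaling and on single libraries, with 6 higher and 5 lower after median-of-ratios scaling, and 0 higher and 4 lower without shEV replicate 3 or without shPAX2 replicate 2. The adaptor *GAB1* (11.8 to 7.83 TPM, log2 fold change -0.56, adjusted p = 0.00146) and the scaffold *KSR1* (3.54 to 2.42 TPM, -0.47, adjusted p = 0.0162) had the lowest log2 fold changes of the list. The *GAB1* call held in every alternative, while *KSR1* lost its call after quantile normalization (-0.21, adjusted p = 0.214) and without shEV replicate 3 (adjusted p = 0.0604) or shPAX2 replicate 2 (0.0645). *HRAS*, the 1 gene called higher (60.8 to 73.2 TPM, log2 fold change 0.27, adjusted p = 0.0171), was not called without shEV replicate 3 (adjusted p = 0.0629) or shPAX2 replicate 2 (0.0761). *RPS6KA3*, which encodes the ERK-activated kinase RSK2, was lower (13.1 to 11.3 TPM, -0.21, adjusted p = 0.0307), but lost its call in 8 of 16 alternatives, among them median-of-ratios scaling (-0.10, adjusted p = 0.245), quantile normalization (-0.02, adjusted p = 0.832) and the omission of any single library other than shPAX2 replicate 1.

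FGF receptors are among the receptors at the top of the cascade, and which of them drive it in these cells was not measured. *FGFR1* fell from 338 ± 9.74 to 250.7 ± 20.7 TPM (SD, n = 3 each; log2 fold change -0.43, adjusted p = 0.00128), and *FGFR2*, the mutated receptor of the line, fell from 196 ± 1.82 to 176 ± 4.34 TPM (log2 fold change -0.16, adjusted p = 0.0397). *FGFRL1*, a receptor without the kinase domain, fell as well (33.98 to 27.5 TPM, log2 fold change -0.30, adjusted p = 0.00752). *FGFR3* (13.7 and 12.4 TPM, adjusted p = 0.157) and *FGFR4* (7.40 and 9.17 TPM, log2 fold change 0.29, adjusted p = 0.0501) did not pass the test. The receptor calls were sensitive to the settings. *FGFR4* passed as higher in 9 of 16 alternatives, with log2 fold changes of 0.40 (adjusted p = 0.0159) after median-of-ratios scaling and 0.51 (0.00476) after quantile normalization, and *FGFR2* lost its call in 9 of 16, among them each omission of 1 library. After median-of-ratios scaling *FGFRL1* was at -0.19 (adjusted p = 0.0551), and 1 receptor was lower (*FGFR1*) and 1 higher (*FGFR4*).

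**Figure D4:**
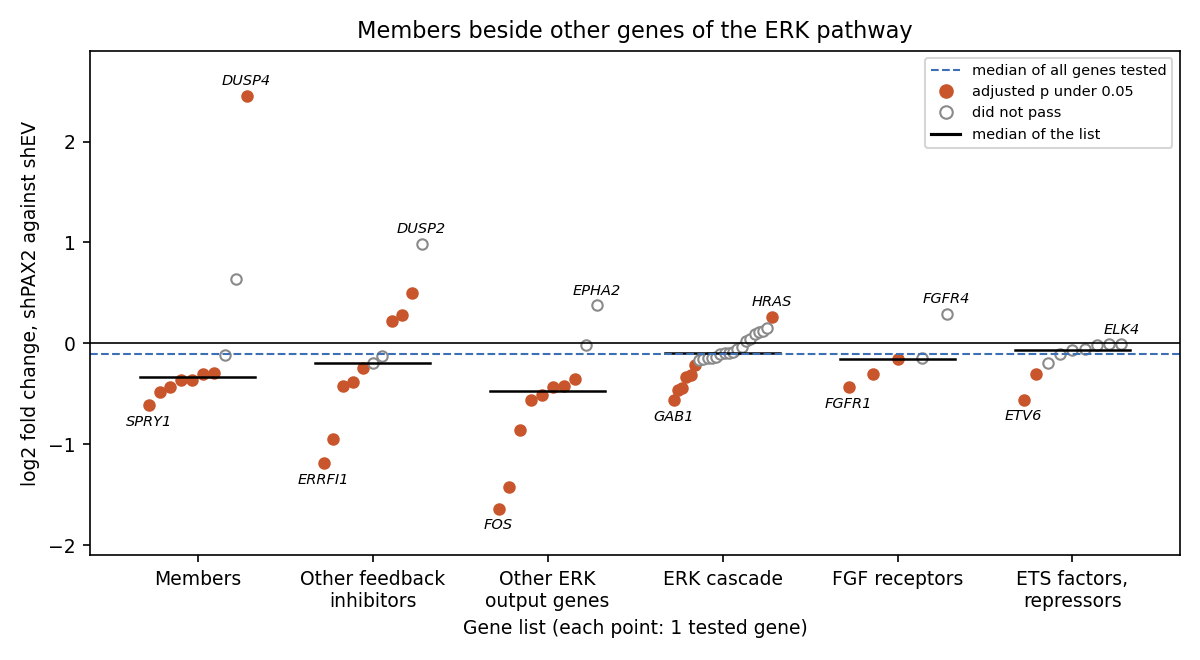
Log2 fold change of every tested gene of each list (shPAX2 minus shEV), with the median of the list marked beside that of all genes tested. The other ERK output genes have a median of -0.48, the ERK cascade a median of -0.10, and DUSP4 is the highest point among the members.

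Across the 6 libraries, 3 genes outside the list had a pattern nearest to that of *DUSP6*, by root mean square distance on the log2 scale after centring each gene, among 10518 genes with a mean of at least 5 TPM. They were *CENPJ* (distance 0.016, 38.6 to 28.2 TPM), *RASSF2* (0.0207, 82.7 to 61.5 TPM) and *RGS12* (0.0229, 9.19 to 6.55 TPM). This likeness rests on 6 libraries in 2 groups and is a description. In a bulk sample, fewer cells of a type and less RNA per cell cannot be told apart.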

How the data were processed

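RNA was sequenced from 6 AN3CA libraries, 3 shEV and 3 shPAX2, prepared with a stranded total RNA kit. The authors deposited TPM values for 17471 genes. The submitters' processing notes name bcl2fastq, STAR, Subread, featureCounts and edgeR without versions, and hg19. The study's methods name other tools for another cell line, so the counting step is uncertain. TPM ratios between libraries were ratios of whole numbers in 100.0% of genes. The smallest such whole numbers were taken as the reads, so a factor common to the libraries of a gene may be missing.

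Genes with at least 0.5 TPM in at least 3 libraries (13163) were tested with limma 3.58.1 in R 4.3.3 (trend and robust) on log2(TPM + 0.5), two-sided, with Benjamini-Hochberg adjustment over all of them. Fold changes on this scale understate changes of low genes. The fit was also run on simulated reads with the same spread setting for every gene and few changed genes. That setting is simpler than these data, so it does not measure the error rate here. Named were all 10 members, *PAX2*, *FGFR1* to *FGFR4*, the 2 highest and 2 lowest passing genes of each list and the 3 genes most like *DUSP6*. Members and lists were chosen with earlier results of these data known; *EPHA2*, *FOSL1*, *DUSP2* and *CIC* and the genes overlapping *ETV4* and *ETV5* were named after their values were seen. *SPRY3*, *DCN*, *LUM*, *PECAM1*, *CD3E* and *MS4A1* were not analysed here. Gene positions are from GENCODE on GRCh37. Alternatives were other pseudocounts, filters, scalings, a replicate block, left-out libraries and voom on the recovered reads.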

Additional observations from a re-analysis of the deposited data

How the results depend on the processing

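*DUSP4*, *DUSP6*, *SPRY1*, *ETV4* and *ETV5* kept their call and direction in all 16 alternatives, as did *EGR1*, *ERRFI1*, *IL17RD* and *FGFR1*. *DUSP4* was the 1 member past the fold threshold in all 16. The number of members called was 5, with 4 lower, after median-of-ratios scaling, beside 5447 called and 2577 lower of 13166 genes tested. Leaving out 1 library gave 5 to 8 members called, 4 to 7 lower and 1 to 2 higher, and the lowest counts came without shEV replicate 3. The members called higher were 2, with *PHLDA1* joining *DUSP4*, under the replicate block (*PHLDA1* adjusted p = 0.0389), under voom on the recovered reads (0.0405) and without shPAX2 replicate 1. The sign turned after quantile normalization in *SPRED1* (0.013, adjusted p = 0.915) and *FGFR3* (0.0333, adjusted p = 0.773). *DUSP5* lost its call in 8 alternatives, *SPRY2* in 3 and *SPRY4* in 2. The labels do not say whether same-numbered libraries were paired. Their deviations from the group means had correlations of -0.0523, 0.0815 and 0.0014, which alone cannot settle it. With the replicate block 9 members were called and 5112 genes in all, and *FOS* was lost (adjusted p = 0.0686). All genes called ranged from 3842 to 5932. *PAX2* kept its call in the 15 alternatives that could give one, as the filter at 5 TPM removed it. The causes were not tested. Depth limits genes with few reads, such as *PAX2* (41 to 136 per library).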

Other observations

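The transcription factors and repressors that act on ERK targets beside *ETV4* and *ETV5* mostly did not pass the test. Of 9 tested, 0 were higher, 2 were lower and 7 did not pass, with a median log2 fold change of -0.06. Most genes did not pass in general. Of all 13163 genes tested, 7534 did not pass and 30.5% were lower, against 22.2% lower of these 9. *ETV6*, an ETS family repressor, fell from 11.3 ± 1.11 to 7.49 ± 0.67 TPM (SD, n = 3 each; log2 fold change -0.56, limma adjusted p = 0.00243), and *ETS2* fell from 6.54 to 5.20 TPM (-0.30, adjusted p = 0.0334), a call that was lost in 8 of 16 alternatives. *CIC*, the repressor that ERK signalling inactivates at *ETV4* and *ETV5*, had a log2 fold change of -0.06 (adjusted p = 0.511).

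*DUSP2* and *EPHA2* showed the same pattern as *PHLDA1* among the shPAX2 libraries and were picked out after their values were seen. Among the shEV libraries they differed from it, as replicate 1 was the highest for both and replicate 3 for *PHLDA1*. *DUSP2*, a nuclear MAP kinase phosphatase, stood at 19.2, 12.4 and 13.6 TPM in the shEV replicates and at 18.0, 39.3 and 37.3 TPM in the shPAX2 replicates (log2 fold change 0.99, adjusted p = 0.0992). *EPHA2*, a receptor tyrosine kinase, stood at 23.1, 19.6 and 18.6 TPM against 20.6, 31.7 and 29.0 TPM (0.38, adjusted p = 0.116). In both, shPAX2 replicate 1 lay within the shEV range, as it did for *PHLDA1*, and the other two shPAX2 libraries lay above it.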
